A study of Mus musculus with 9 samples.

Results

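The renin-angiotensin system was examined through 6 of its genes in the left ventricle of 16-week-old C57BL6J mice. The genes are *Agt*, *Ace*, *Enpep*, *Mme*, *Agtr1a* and *Nr3c2*, and all 6 were found among the 52636 Ensembl genes of the count table. They were chosen by their levels in these libraries, both beside the level of *Vdac2* and between the deposited labels, which *Ace* was known to follow. Their values along those lines are therefore a description, and *Ace* is given no test between the labels. Bulk RNA from transmural left ventricular tissue was sequenced in 9 libraries, of which 5 carry the label WT (libraries 1 to 5) and 4 the label KO (libraries 6 to 9).

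In the study's design the KO mice carry floxed *Vdac2* and a Cre transgene under the α-myosin heavy chain promoter, which directs Cre to cardiomyocytes. The WT littermates carry either the floxed allele or the Cre transgene. *Vdac2* encodes a porin of the outer mitochondrial membrane, and its transcripts from other cell types of the ventricle would remain in a KO heart. Males and females were both used by the study, and the labels give no sex. The labels also do not say that each library came from a separate animal, so p-values measure the spread between these libraries only.

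The level of *Vdac2* did not follow the labels. Levels here are CPM, the counts of a gene scaled to a common normalized library size (counts per 1e+06). *Vdac2* was at 366, 365, 384 and 421 CPM in libraries 2, 4, 6 and 8, and at 20.2, 21.3, 20.5 and 19.1 CPM in libraries 1, 5, 7 and 9. The first set is called the *Vdac2*-high libraries and the second the *Vdac2*-low libraries, and each holds 2 libraries of either label. These names state a measured level and not a genotype, so values by *Vdac2* level are listed without a mean or a test. Library 3, labelled WT, had 58.5 CPM of *Vdac2* and is kept apart. It held the lowest of the 9 values for 37.4% of the 16322 genes tested and the highest for 37.7%. The study left a WT sample of poor RNA quality out of its analysis without naming it in the text read here, and all 9 libraries were used here. The 5 libraries labelled WT were sequenced in lane 1 and the 4 labelled KO in lane 2. *Xist*, transcribed from the inactive X chromosome, was at 335 to 587 CPM under the KO label and at most 0.152 CPM under WT. *Ddx3y*, a gene of the Y chromosome, was at 126 to 170 CPM under WT and had at most 1 count under KO. Each comparison between the labels, that of *Ace* included, is therefore also one between lanes and between libraries with female and male expression of these genes, and label, lane and sex cannot be told apart. Between 27345052 and 44673988 reads were counted per library.

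The renin-angiotensin system raises blood pressure and drives growth and fibrosis in the failing heart. Angiotensinogen, the product of *Agt*, is cut by renin to angiotensin I, which angiotensin-converting enzyme (*Ace*) turns into angiotensin II. Angiotensin II acts through the AT1 receptor (*Agtr1a*), stimulates aldosterone release and is trimmed or bypassed by other peptidases, among them aminopeptidase A (*Enpep*) and neprilysin (*Mme*). Aldosterone binds the mineralocorticoid receptor (*Nr3c2*), a nuclear receptor that cardiomyocytes contain.

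The promoters of *Ace*, the member that followed the label, *Mme*, the member whose ranges were apart by *Vdac2* level, and *Agt*, the precursor, are shown as the starts of the genes the results turn on. RefSeq starts on GRCm38.p6 were matched for 5 of the 6 members. Each line gives the 80 bases before a start, 5′ to 3′ on the coding strand, with the letters TATAA in capitals where they lie within 60 bases of the start.

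*Ace*, first start, chr11:105967868-105967947, plus strand: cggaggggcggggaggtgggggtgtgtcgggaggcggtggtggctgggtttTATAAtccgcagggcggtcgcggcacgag
*Ace*, internal start, chr11:105975109-105975188, plus strand: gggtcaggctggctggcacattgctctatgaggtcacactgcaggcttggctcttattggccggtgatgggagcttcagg
*Agt*, chr8:124569707-124569786, minus strand: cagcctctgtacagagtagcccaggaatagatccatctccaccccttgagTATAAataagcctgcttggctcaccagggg
*Mme*, upstream start, chr3:63295131-63295210, plus strand: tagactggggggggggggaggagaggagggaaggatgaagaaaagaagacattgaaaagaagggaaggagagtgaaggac
*Mme*, downstream start, chr3:63296015-63296094, plus strand: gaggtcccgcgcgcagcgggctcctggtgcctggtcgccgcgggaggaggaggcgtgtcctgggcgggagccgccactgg

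TATAA began 29 bases before the first *Ace* start and 30 bases before the *Agt* start, and was not in these windows at the internal *Ace* start or at either *Mme* start shown. On either strand, TATAA lay within 60 bases of 7.24% of 32851 RefSeq starts. The internal *Ace* start is the one used in the testis. Counts per gene add reads of all starts, so the starts were not separated here.

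**Figure D1:**
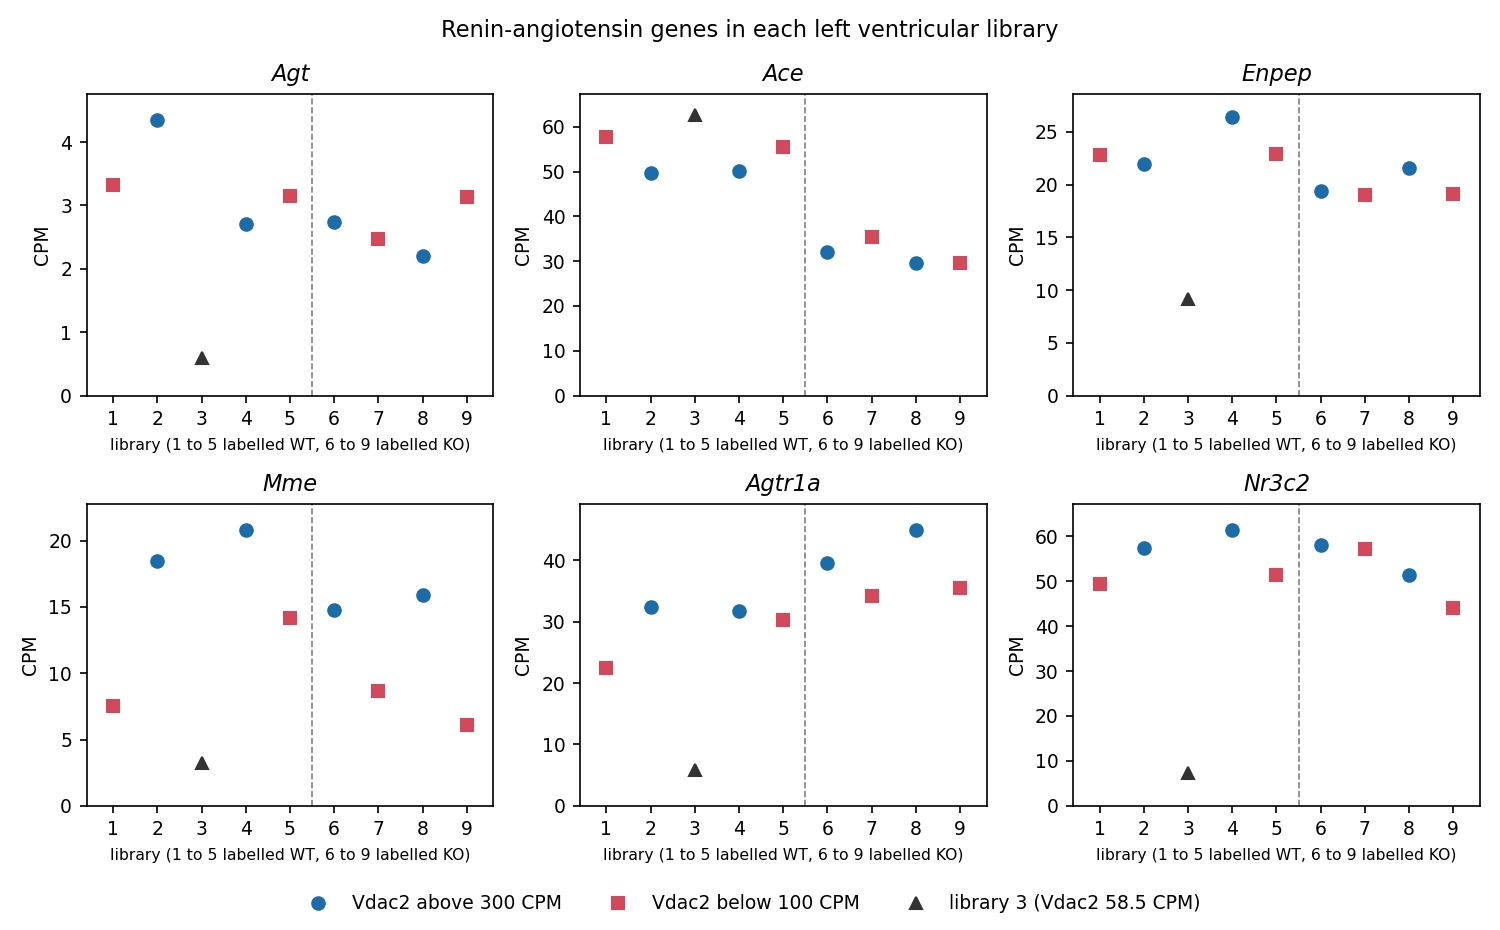
Level of each of the 6 genes in CPM (vertical axes, from 0) in each of the 9 libraries (horizontal axes), with the marker giving the *Vdac2* level and the dashed line separating the labels. *Ace* lies at 49.8 CPM or more in all libraries labelled WT and at 35.5 CPM or less in all labelled KO, *Mme* is lower in the *Vdac2*-low than in the *Vdac2*-high libraries, and library 3 is lowest for every gene but *Ace*.

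*Ace*, the peptidase that makes angiotensin II and inactivates bradykinin, was the member that separated the labels most widely. It lies on chromosome 11 of GRCm38 from 105967945 to 105989964 (ENSMUSG00000020681). Its level was 57.7, 49.8, 62.6, 50.2 and 55.6 CPM under the WT label (libraries 1 to 5) and 32.1, 35.5, 29.6 and 29.7 CPM under the KO label (libraries 6 to 9). Every library labelled WT was above every library labelled KO, with a mean of 55.1 ± 5.37 CPM (SD, n = 5) under WT against 31.7 ± 2.77 CPM (SD, n = 4) under KO. Taken as KO minus WT, the log2 fold change was -0.80 with a standard error of 0.099 from edgeR's quasi-likelihood fit, and -0.75 without library 3.

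*Ace* did not separate the *Vdac2* levels. It was at 29.6 to 50.2 CPM in the *Vdac2*-high and at 29.7 to 57.7 CPM in the *Vdac2*-low libraries. Within lane 1 the *Vdac2*-low libraries held the higher *Ace* values (57.7 and 55.6 against 49.8 and 50.2 CPM). Within lane 2 the values overlapped (35.5 and 29.7 against 32.1 and 29.6 CPM).

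*Ace* is carried on the surface of endothelial cells, so its level was set beside a list of 12 endothelial markers, such as *Pecam1*, *Cdh5* and *Kdr*. In bulk tissue, fewer cells of a type and less RNA per cell cannot be told apart. The summed level of the list was 1479 to 1690 CPM in libraries 1, 2, 4 and 5, 809 CPM in library 3 and 1260 to 1550 CPM in the libraries labelled KO. Between the labels, the lowest adjusted p of the 12 markers from edgeR was 0.68, and 6 of the 12 estimates were above 0 with all libraries but 2 without library 3, where the median was -0.13. In that fit 3 of the 12 reached 0.05 before adjustment, against 1912 of 16251 genes, and the lowest adjusted p was 0.057, for *Emcn* at -0.50, in the direction of *Ace*. Per 100 CPM of the markers, *Ace* was at 2.95 to 3.90 CPM in libraries 1, 2, 4 and 5 and at 1.97 to 2.35 CPM in the libraries labelled KO. In library 3 this ratio was 7.73, the highest of all, where *Ace* was at its highest value and the markers at their lowest sum.

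Several other marker lists also leaned to one side between the labels. Estimates were below 0, as for *Ace*, in 8 of 9 fibroblast markers and all 3 atrial markers tested, and above 0 in all 8 ventricular cardiomyocyte markers. Those counts rest on library 3, without which 2 of 9 fibroblast markers, 1 of 3 atrial markers and 2 of 8 cardiomyocyte markers had estimates below 0. All 8 macrophage markers had estimates below 0, and 4 reached 0.05 before adjustment in edgeR, with sums of 505.9 to 1854 CPM under WT and 345 to 588 CPM under KO. All 5 epicardial markers had estimates below 0, and 4 reached 0.05 before adjustment (*Upk3b*, *Msln*, *Krt19* and *Upk1b*, from -2.20 to -1.60), with sums of 8.89 to 28.8 CPM under WT and 5.75 to 13.2 CPM under KO. Over all genes tested, 997 of 16322 reached 0.05 before adjustment. Without library 3 all 8 macrophage and all 5 epicardial estimates were again below 0, with medians of -0.44 and -1.60. None of these markers had an adjusted p under 0.05, the macrophage and epicardial sums overlap between the labels, and their part in the level of *Ace* was not tested.

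**Figure D2:**
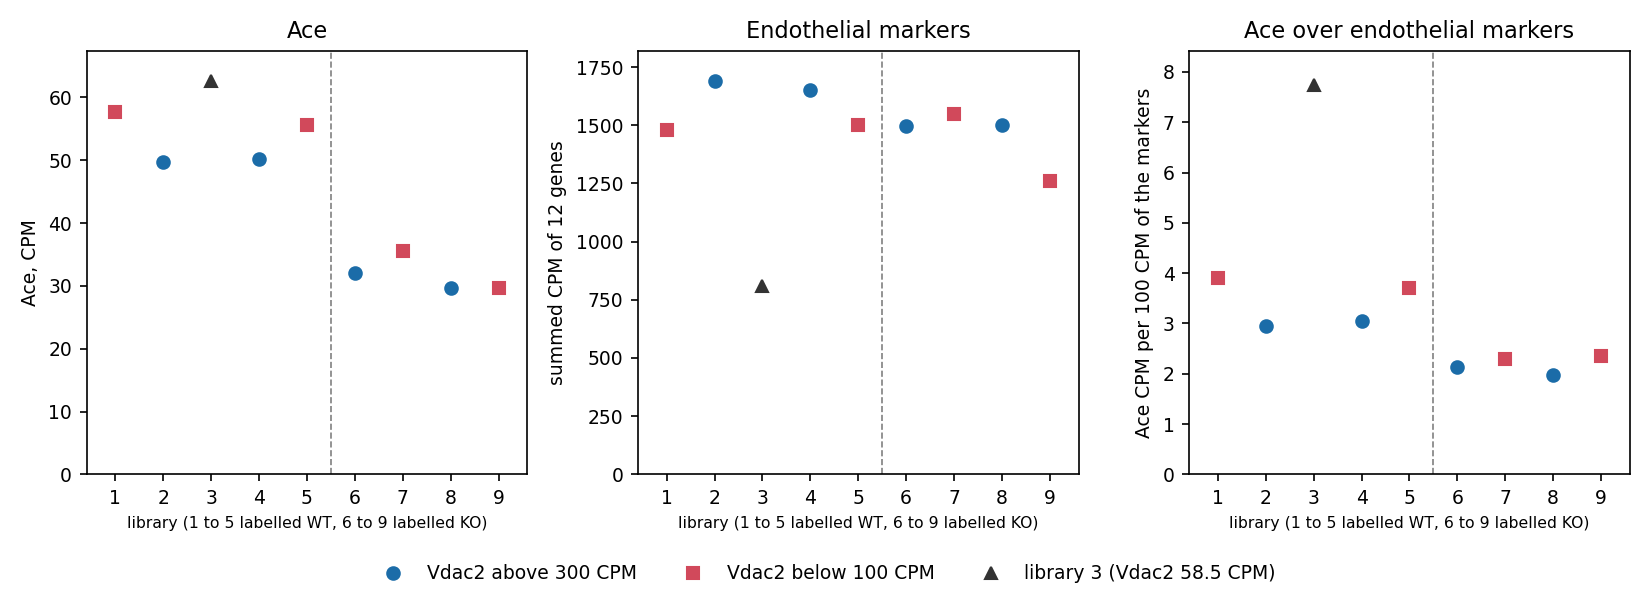
*Ace* in CPM (left), the summed CPM of 12 endothelial marker genes (middle) and *Ace* per 100 CPM of those markers (right) in each library, with the marker giving the *Vdac2* level and the dashed line separating the labels. *Ace* is at 29.6 to 35.5 CPM under KO and the ratio at 1.97 to 2.35, the marker sums of the labels overlap, and library 3 has the lowest sum, 809 CPM.

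*Agtr1a*, the main AT1 receptor gene of rodents and a receptor of cardiomyocytes, fibroblasts and vessels, also had labels that did not overlap, in the direction opposite to *Ace*. It lies on chromosome 13 from 30336441 to 30382867 (ENSMUSG00000049115). Its level was 22.4, 32.4, 5.80, 31.8 and 30.3 CPM under the WT label (libraries 1 to 5) and 39.5, 34.2, 44.9 and 35.5 CPM under the KO label (libraries 6 to 9). The log2 fold change came to 0.65 ± 0.40 (standard error), with an edgeR adjusted p of 0.68, and 2 standard errors either side span -0.15 to 1.46. Without library 3 it was 0.39 with an adjusted p of 0.27 from the same test. All 8 ventricular cardiomyocyte markers also had estimates above 0, with a median of 0.43, and 1 of them, *Tnnt2*, did not overlap between the labels, against 4.36% of all genes tested. Without library 3 the median was 0.17, and the estimates of *Ryr2* (-0.11) and *Ttn* (-0.0007) were below 0. Their sums overlapped, at 53677 to 158154 CPM under WT and 140058 to 172055 CPM under KO, and their part in the level of *Agtr1a* was not tested.

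*Agtr1a* was also lower in the *Vdac2*-low libraries of each lane. In lane 1 it was at 22.4 and 30.3 CPM against 32.4 and 31.8 CPM in the *Vdac2*-high libraries, and in lane 2 at 34.2 and 35.5 against 39.5 and 44.9 CPM. Over both lanes the ranges overlapped, 22.4 to 35.5 CPM in the *Vdac2*-low and 31.8 to 44.9 CPM in the *Vdac2*-high libraries. The gap in lane 1 is narrow: the counting intervals (95%, exact Poisson) of library 5, 28.5 to 32.3 CPM, and library 4, 29.6 to 34.0 CPM, overlap.

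*Mme*, which encodes neprilysin, the membrane peptidase that degrades natriuretic peptides and converts angiotensin I to its vasodilator product, was the member whose *Vdac2*-low libraries all lay below all *Vdac2*-high ones. It lies on chromosome 3 from 63241537 to 63386030 (ENSMUSG00000027820). In the *Vdac2*-high libraries 2, 4, 6 and 8 it was at 18.5, 20.8, 14.7 and 15.9 CPM, and in the *Vdac2*-low libraries 1, 5, 7 and 9 at 7.52, 14.2, 8.65 and 6.07 CPM. The ranges did not overlap, although library 5 and library 6 nearly met and their counting intervals overlap (12.9 to 15.5 and 13.5 to 16.0 CPM, exact Poisson). Within each lane the *Vdac2*-low libraries were lower, at 7.52 and 14.2 against 18.5 and 20.8 CPM in lane 1 and at 8.65 and 6.07 against 14.7 and 15.9 CPM in lane 2. On CPM by total count, without scaling between libraries, the ranges of *Mme* overlapped.

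Between the labels *Mme* was at 12.8 ± 7.37 CPM (SD, n = 5) under WT and 11.3 ± 4.74 CPM (SD, n = 4) under KO. The log2 fold change of *Mme* came to -0.18 ± 0.51 (standard error), with an edgeR adjusted p of 0.90, smaller than the spread within either label. It was -0.44 without library 3, and turned to 0.064 without library 4 and 0.031 without library 9.

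By the *Vdac2* level, 1 of the 6 genes, *Mme*, was lower without overlap in the *Vdac2*-low libraries, as were 4.93% of the 16322 genes tested, and 0 were higher without overlap, against 7.16% of those genes. In both lanes separately, 2 of the 6, *Mme* and *Agtr1a*, were lower without overlap, against 8.58% of genes, and 0 were higher, against 11.3%. Since the genes were chosen with this division of the libraries in view, nothing is read from these shares.

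Marker sums of 4 lists were also apart by *Vdac2* level, the cardiomyocyte sum lower with low *Vdac2*, as *Mme* was, and the fibroblast, macrophage and atrial sums higher. Of single markers, 1 of 8 cardiomyocyte markers (*Ttn*, the largest part of that sum) was lower without overlap, against 4.93% of all genes tested. Lower without overlap were also 2 of 12 endothelial markers (*Pecam1* and *Flt1*) and 1 of 7 pericyte markers (*Kcnj8*), and 0 of either list were higher. For the fibroblast and macrophage lists, 4 of 9 and 4 of 8 markers were higher without overlap, against 7.16% of all genes tested. The summed level of 8 ventricular cardiomyocyte markers was 156985 to 172055 CPM in the *Vdac2*-high and 138036 to 149919 CPM in the *Vdac2*-low libraries. The 9 fibroblast markers summed to 998 to 1278 CPM in the *Vdac2*-high and 1473 to 1519 CPM in the *Vdac2*-low libraries, and the 8 macrophage markers to 345 to 519 and 563 to 804 CPM. The 5 atrial markers, nearly all *Nppa*, summed to 74.9 to 106 and 160.4 to 1526 CPM. None of these 4 sums overlapped, whereas those of the 12 endothelial markers (1498 to 1690 and 1260 to 1550 CPM) and the 7 pericyte markers (1789 to 1975 and 1452 to 1893 CPM) did. Their part in the level of *Mme* was not tested. Every marker of these 6 lists but the atrial *Sln* had 3 counts or more in at least 1 library.

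*Nr3c2*, the mineralocorticoid receptor gene, lies on chromosome 8 from 76899442 to 77245012 (ENSMUSG00000031618). It was at 49.4, 57.4, 7.23, 61.3 and 51.5 CPM under the WT label (libraries 1 to 5) and at 58.1, 57.1, 51.3 and 43.9 CPM under the KO label (libraries 6 to 9). Apart from library 3, the 8 values span 43.9 to 61.3 CPM and overlap between the labels. The log2 fold change came to 0.21 ± 0.47 (standard error), with an edgeR adjusted p of 0.87, and -0.068 without library 3. The *Vdac2*-low libraries, at 43.9 to 57.1 CPM, overlapped the *Vdac2*-high ones, at 51.3 to 61.3 CPM.

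*Enpep*, which encodes the aminopeptidase that removes the first residue of angiotensin II, lies on chromosome 3 from 129269175 to 129332720 (ENSMUSG00000028024). Its level was 22.8, 21.9, 9.12, 26.4 and 22.9 CPM under the WT label (libraries 1 to 5) and 19.4, 19.0, 21.6 and 19.1 CPM under the KO label (libraries 6 to 9). The labels overlapped only through library 3. The log2 fold change came to -0.060 ± 0.26 (standard error), with an edgeR adjusted p of 0.94, and -0.26 with an adjusted p of 0.24 without library 3. By *Vdac2* level, *Enpep* was at 19.0 to 22.9 CPM in the low and 19.4 to 26.4 CPM in the high libraries, which overlap.

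*Agt*, the precursor gene, known mainly from liver, had few counts in the ventricle. It lies on chromosome 8 from 124556534 to 124569706 (ENSMUSG00000031980), and its level was 3.32, 4.35, 0.593, 2.70 and 3.14 CPM under the WT label (libraries 1 to 5) and 2.73, 2.48, 2.21 and 3.14 CPM under the KO label (libraries 6 to 9). Library 3 held 22 counts of *Agt* and the others 71 to 136. The log2 fold change came to -0.092 ± 0.44 (standard error), with an edgeR adjusted p of 0.94. It was -0.36 without library 3 and turned to 0.12 without library 2. The *Vdac2*-low libraries (2.48 to 3.32 CPM) lay within the range of the *Vdac2*-high ones (2.21 to 4.35 CPM).

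Between the labels, 0 of the 5 members other than *Ace* passed the threshold, an edgeR adjusted p under 0.05, and 0 reached 0.05 before adjustment, which 997 of all 16322 genes did. Of all genes tested, 0.0551% passed. Without library 3, 2 of the 5, *Agtr1a* and *Enpep*, reached 0.05 before adjustment, as did 1912 of 16251 genes, and 0 of the 5 passed. DESeq2 also called 0 of the 5. Among these 5, the labels did not overlap for 1, *Agtr1a*, against 4.36% of genes. Without library 3 this was 2 of the 5, *Agtr1a* and *Enpep*, against 7.44% of genes. *Ace*, known to follow the label, is left out of these counts. Since the genes were chosen with the labels in view, nothing is read from these shares.

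**Figure D3:**
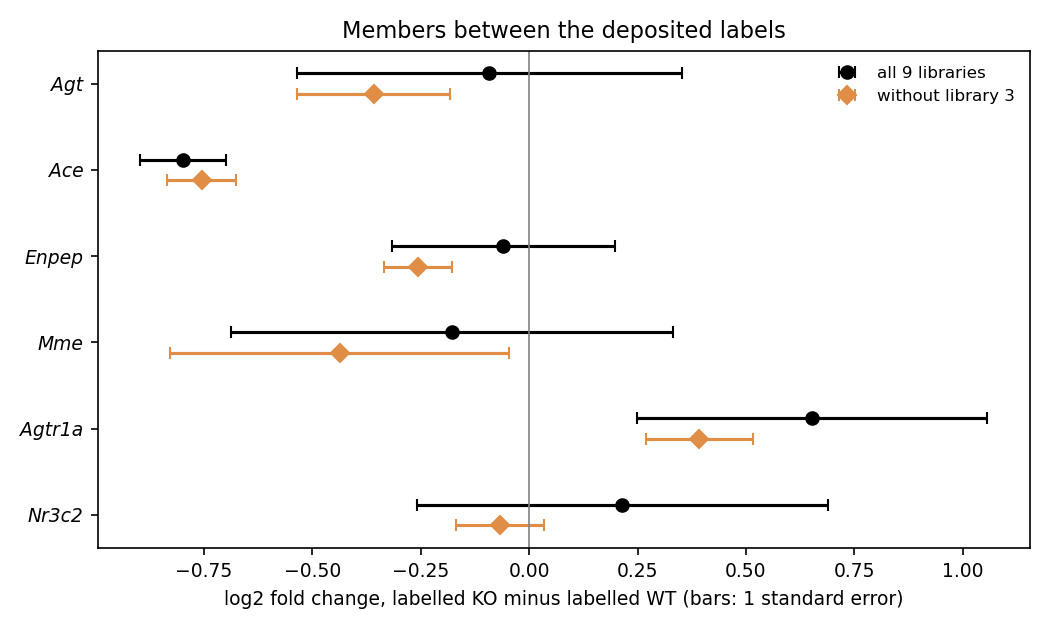
Log2 fold change between the deposited labels (horizontal axis, KO minus WT) for each of the 6 genes, from all 9 libraries (circles) and without library 3 (diamonds), with bars of 1 standard error. *Ace* lies at -0.80 and -0.75, *Agtr1a* is above 0 in both fits, and *Nr3c2* changes sign when library 3 is left out, from 0.21 to -0.068.

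Library 3 set the spread of most members. It was lowest of the 9 libraries for 5 of the 6 genes and highest for *Ace*. In *Agtr1a* it was at 5.80 CPM against 22.4 CPM or more elsewhere, and in *Nr3c2* at 7.23 CPM against 43.9 CPM or more. The same library had the lowest sum of ventricular cardiomyocyte markers, 53677 CPM against 138036 CPM or more, and of pericyte markers, 629 CPM against 1452 CPM or more, although 3 of the 7 pericyte markers (*Pdgfrb*, *Cspg4* and *Notch3*) were highest there and the other 4 lowest. Its sums of fibroblast markers, 5546 CPM, and macrophage markers, 1854 CPM, were the highest, against at most 1519 and 804 CPM elsewhere. The part of these in its levels was not tested.

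Set per length, as RPKM (CPM per kilobase of annotated exons), *Agtr1a* had the highest median, 11.6 RPKM, followed by *Ace* with 9.41, *Nr3c2* with 7.95, *Enpep* with 4.58, *Agt* with 1.44 and *Mme* with 1.23 RPKM. Without library 3 the medians of *Ace* and *Nr3c2* were 8.06 and 8.39 RPKM, which turns their order. Apart from library 3, *Agtr1a* ranged from 8.03 to 16.1 RPKM, *Ace* from 5.60 to 10.9 and *Nr3c2* from 6.79 to 9.47, so these 3 neighbours overlap. *Enpep*, at 4.03 to 5.61 RPKM, lay below *Nr3c2* without overlap and above *Agt*, at 1.17 to 2.30 RPKM. *Mme*, at 0.526 to 1.80 RPKM, overlapped *Agt*, and its level was taken over 11542 bases of exons, which its transcripts cover together. Under the KO label *Agtr1a* exceeded *Ace* in every library, at 12.3 to 16.1 against 5.60 to 6.72 RPKM, whereas under the WT label *Ace* exceeded *Agtr1a* in library 1 (10.9 against 8.03 RPKM) and library 3 (11.8 against 2.08 RPKM).

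The genes whose pattern was most like each member were found by Pearson's r of log2(CPM + 0.5) over the 8 libraries other than library 3, among autosomal genes with a mean of 5 CPM or more. These 8 libraries share lane, label and *Vdac2* level in blocks, and r is given as a description. For *Ace* they were *Bmper*, a regulator of bone morphogenetic protein signalling in endothelium (r = 0.98), and the complement gene *C7* (r = 0.98). For *Agtr1a* they were *Tnni3k*, a kinase of cardiomyocytes, and *Cmss1*, each with r = 0.99. The pairs were *Fam133b* and *Mkln1* for *Mme* (r = 0.99 for each), *Ccnk* and *Tango6* for *Nr3c2* (0.99 and 0.98), *Parg* and the clock gene *Arntl* for *Enpep* (0.98 and 0.96), and *Ube2l6* and *Manf* for *Agt* (0.95 and 0.94). With library 3 included, r stayed at 0.99 for both genes of *Agtr1a* and was 0.83 and 0.73 for *Bmper* and *C7* with *Ace*, 0.86 and 0.94 for *Fam133b* and *Mkln1* with *Mme*, and -0.57 and 0.86 for *Ccnk* and *Tango6* with *Nr3c2*. It was -0.0017 and -0.041 for *Parg* and *Arntl* with *Enpep*, and -0.027 and -0.83 for *Ube2l6* and *Manf* with *Agt*.

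Renin itself was not seen in the ventricle. A list of 22 other genes of the system holds *Ren1*, further angiotensin peptidases and further receptors. Of these, 16 passed the filter on low counts, and 0 passed the threshold between the labels in edgeR, or reached 0.05 before adjustment, and DESeq2 also called 0. The median log2 fold change was -0.0255, against -0.0185 over all genes tested, and estimates ran from -0.70 (*Anpep*) to 0.34 (*Cma1*). Without library 3 the median was 0.047, against 0.0030 over all genes, with -0.24 for *Anpep* and 0.16 for *Cma1*, and 0 of the 16 passed. *Ren1* had 0 counts in every library, where 3 counts, the smallest level taken as shown, correspond to 0.0693 to 0.114 CPM. That limit, like the counting intervals given here, covers counting error only.

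Among the other receptors, *Agtr1b*, the second AT1 gene of rodents, had at most 1 count in any library, and *Agtr2*, the AT2 receptor gene, at most 3. *Mas1*, the receptor gene of the vasodilator arm, was at 0.785 to 1.34 CPM in 8 libraries and had 0 counts in library 3. *Lnpep*, whose product binds angiotensin fragments and trims peptides, was at 312 to 365 CPM. *Atp6ap2*, which encodes the prorenin receptor, was at 24.3 to 30.4 CPM in 8 libraries and 46.3 CPM in library 3.

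Among the peptidases, *Cma1*, a mast cell chymase gene, was at 0.782 to 2.69 CPM, and *Cpa3*, another mast cell protease gene, at 1.13 to 2.74 CPM. *Anpep*, the aminopeptidase that acts on angiotensin III, was at 3.39 to 7.14 CPM in 8 libraries and 16.4 CPM in library 3. By *Vdac2* level, 1 of the 16, the lysosomal carboxypeptidase gene *Ctsa*, was higher without overlap in the *Vdac2*-low libraries, against 7.16% of all genes tested, and 0 were lower, against 4.93%.

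**Figure D4:**
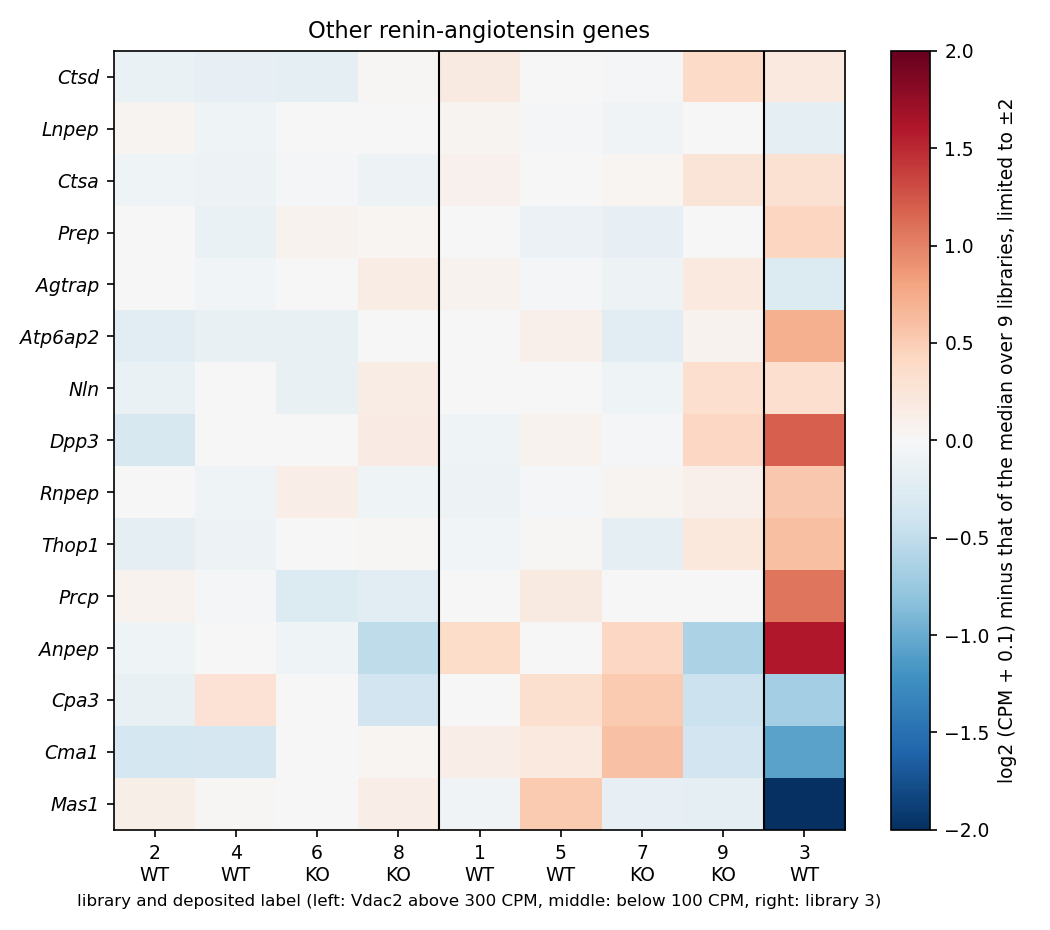
Log2(CPM + 0.1) of 15 of the 16 tested genes of the list relative to each gene's median over the 9 libraries (colour, limited to ±2), with libraries in columns by *Vdac2* level and genes in rows by median level. Most cells outside library 3 are pale, and library 3 stands apart in both directions, with *Mas1* at 0 counts and *Anpep* at 16.4 CPM.

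Of 15 genes of aldosterone and corticosteroid synthesis, metabolism and response, 11 were tested and 0 passed the threshold between the labels in edgeR (DESeq2 also called 0), while 4 reached 0.05 before adjustment, as did 997 of all 16322 genes tested. Without library 3, 6 of the 11 did, against 1912 of 16251 genes, and 1, *Hsd11b1*, passed. Their median log2 fold change was 0.070, against -0.0185 over all genes tested, and 0.0067 without library 3. By *Vdac2* level, 1 of the 11, *Lcn2*, was higher without overlap in the *Vdac2*-low libraries, against 7.16% of all genes tested. It was at 4.80 to 9.12 CPM there and at 0.588 to 2.16 CPM in the *Vdac2*-high libraries. None of the 11 was lower without overlap, against 4.93% of all genes tested. The aldosterone synthase gene *Cyp11b2* had 0 counts in every library, and *Hsd11b2*, whose product shields the mineralocorticoid receptor from corticosterone, at most 1. *Hsd11b1*, whose product regenerates corticosterone, was at 21.1, 22.7, 23.7 and 26.8 CPM in libraries 1, 2, 4 and 5, labelled WT, at 7.39 CPM in library 3 and at 9.10 to 13.0 CPM in the libraries labelled KO. Its log2 fold change came to -0.94 ± 0.32 (standard error), with an adjusted p of 0.68, and -1.16 with an adjusted p of 0.0010 in the same edgeR test without library 3.

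Of the 6 receptor target genes of this list, 0 passed the threshold between the labels, and 4 estimates were above 0 (*Zbtb16* 0.60, *Klf9* 0.53, *Tsc22d3* 0.52 and *Per1* 0.34) and 2 below (*Fkbp5* -0.61 and *Sgk1* -0.14). Without library 3 the signs were the same, with 0.44 for *Zbtb16*, 0.29 for *Klf9*, 0.37 for *Tsc22d3*, 0.40 for *Per1*, -0.43 for *Fkbp5* and -0.28 for *Sgk1*, and 0 of the 6 passed. *Tsc22d3*, a glucocorticoid-induced gene, was at 52.4 to 107 CPM under WT and 117 to 151 CPM under KO, and *Fkbp5*, another, was at 17.3 to 36.9 and 15.2 to 18.4 CPM. *Sgk1*, the kinase induced by aldosterone, was at 39.0 to 78.5 and 51.4 to 62.3 CPM. The glucocorticoid receptor gene *Nr3c1* was at 136 to 194 CPM under WT and 177 to 186 CPM under KO.

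Neprilysin and angiotensin-converting enzyme also cut natriuretic peptides and kinins, and 13 of 17 genes of those peptides, their receptors and their processing enzymes were tested. Of these, 0 passed the threshold between the labels in edgeR or reached 0.05 before adjustment, DESeq2 also called 0, and the median log2 fold change was -0.17. Without library 3 the median was -0.037, and the estimates of *Nppa* and *Bdkrb2*, a bradykinin receptor gene, turned from -0.81 to 0.73 and from -1.46 to 0.35, with 0 of the 13 past the threshold. *Nppa*, the atrial natriuretic peptide gene, was the gene of this list that was higher without overlap with low *Vdac2*, at 157 to 1523 CPM in the *Vdac2*-low against 72.8 to 104 CPM in the *Vdac2*-high libraries. This is 1 of the 13, against 7.16% of all genes tested. *Nppb*, the brain natriuretic peptide gene, overlapped, at 173 to 482 and 116 to 216 CPM in the same order. *Nppa* stands on a list of 5 atrial markers, of which *Myl4* (1.87 to 2.43 against 1.59 to 1.86 CPM) and *Bmp10* (at most 8 counts in any library) were likewise higher without overlap with low *Vdac2*. The ranges of *Myl4* nearly met, at 1.871 CPM in library 1 and 1.865 CPM in library 2. *Nppa* and *Myl4* make 2 of the 3 atrial markers tested, against 7.16% of all genes tested. Of the other markers, *Myl7* was at most 1.13 CPM and overlapped, and *Sln* had at most 2 counts. The part of atrial tissue was not tested. The receptor genes *Npr1*, *Npr2* and *Npr3* were at 11.5 to 13.6, 28.3 to 35.5 and 38.2 to 54.1 CPM outside library 3.

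Reads could be shared with other genes for few stretches of the members. Of the 50-base stretches of *Agtr1a* transcripts, 1.27% occur in another gene, most of them in *Agtr1b*. For *Ace* and *Nr3c2* the shares were 3.77% and 2.25%, in the antisense genes *Gm11651*, with 0 counts in every library, and *Gm10649*, with at most 11. For *Mme* the share was 0.522% and for *Agt* and *Enpep* 0%. The strand setting of the counting is not given in the sources used here.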

How the data were processed

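Total RNA was rRNA-depleted, made into stranded libraries and sequenced with 50-base single-end reads. The authors deposited 1 table of raw counts per Ensembl gene, without normalization, aligned to GRCm38. The submitters' processing notes name STAR 2.7.2c, featureCounts 1.6.3 and DESeq2, while the strand setting, the rule for multi-mapped reads and the annotation release are not given in the sources used here. Columns were matched to samples by the library number in the title, and 0 columns were unused. Symbols were found for 52403 of 52636 genes, and positions and exon lengths are from GENCODE M21 (GRCm38).

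Labels were compared with edgeR 4.0.16 in R 4.3.3 (filterByExpr, TMM normalization, robust quasi-likelihood F-test, Benjamini-Hochberg adjustment over 16322 genes). Each standard error was obtained as |log2 fold change|/√F. CPM use the TMM-scaled library size. Reads counted per library, 27345052 to 44673988, set a floor of 3 counts at 0.0693 to 0.114 CPM. Libraries of 1 label differed by more than sampling noise (lowest chi-square per degree of freedom 7.35).

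The members and lists were chosen with earlier results of these data known. Named are the 6 members, *Vdac2*, genes of the list of other renin-angiotensin genes, up to 4 genes of each further list (the highest by mean CPM) and the 2 genes most like each member. Genes of further lists named beyond that rule, *Xist*, *Ddx3y*, *Gm11651* and *Gm10649* were chosen after their values were seen. The script was tested on simulated data. Some genes counted in these lists are not reported here. Alternatives were upper-quartile or RLE scaling, DESeq2 1.42.0, no filter, at least 10 counts in every library, mitochondrial or X and Y genes left out, each library left out and, for levels, CPM by total count and library 3 counted with those below 100 CPM of *Vdac2* (the *Vdac2*-high libraries being above 300 CPM).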

Additional observations from a re-analysis of the deposited data

Results flagged for a closer look

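For each of the 6 members and *Vdac2*, the highest and the lowest library of each label were compared with the others by Dixon's ratio of the gap to the range. *Nr3c2* in library 3, labelled WT, was lowest of 5 at 7.23 CPM, far below the next library. *Enpep* in library 3 was likewise lowest of its label at 9.12 CPM. *Enpep* in library 8 was highest of the 4 libraries labelled KO at 21.6 CPM, where the other 3 lie between 19.0 and 19.4 CPM. Of the 14 combinations of gene and label checked, 3 ends were singled out, and chance singles out about 1 in 20 groups. The combinations share the same libraries, and the low ends of *Nr3c2* and *Enpep* are both library 3, which was already kept apart. Nothing is therefore read from the number singled out.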

How the results depend on the processing

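The labels share no replicate numbers. No paired analysis was possible because libraries 1 to 5 carry one label and 6 to 9 the other. The 9 genes with an adjusted p under 0.05 between labels became 62 with DESeq2, and 0 with at least 10 counts in every library (875 at an unadjusted value under 0.05, edgeR) or without X and Y genes (933). Leaving out each library gave 5 to 62, with 5 without library 1, 2 or 4, 6 without library 5, and 62 without library 3. The log2 fold change of *Ace* ran from -0.86 to -0.75 over libraries left out and from -0.80 to -0.77 otherwise. With libraries left out in turn the log2 fold change ran from -0.36 to 0.12 for *Agt* (positive without library 2, 0.12), from -0.26 to 0.045 for *Enpep* (positive without library 4), from -0.44 to 0.064 for *Mme* (0.064 without library 4 and 0.031 without library 9), from -0.068 to 0.35 for *Nr3c2* (negative without library 3) and from 0.39 to 0.77 for *Agtr1a*. Over all alternatives the lowest adjusted p among these 5 was 0.24, and 0 of them were called. Of the pathway genes, 0 to 2 were called, the 2 being without library 3, *Hsd11b1* among them. Beside the *Vdac2* level, 1 member was without overlap (0 on CPM by total count), and 1 to 2 with libraries left out, the second being *Nr3c2* without library 8. The cause of these changes was not tested.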

Other observations

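Of 14 genes that carry or answer AT1 receptor signals, all were tested, 0 had an adjusted p under 0.05 between the labels in edgeR's quasi-likelihood test (2 had an unadjusted value under 0.05, as did 997 of all 16322 genes, and DESeq2 called 0), and library 3 was the highest of the 9 libraries for 12 of them. By *Vdac2* level, 4 of the 14, *Ccn2*, *Arrb1*, *Arrb2* and *Ncf1*, were higher without overlap in the *Vdac2*-low libraries, against 7.16% of all genes tested, and 0 were lower, against 4.93%. The ranges of *Arrb1*, *Arrb2* and *Ncf1* nearly met. Their lowest *Vdac2*-low values were 34.7, 9.51 and 8.28 CPM, against highest *Vdac2*-high values of 34.2, 9.18 and 7.75 CPM. *Ccn2*, a matrix-associated growth factor gene, was at 180, 61.2, 100.1 and 232 CPM in libraries 1, 5, 7 and 9 and at 36.5 to 50.9 CPM in libraries 2, 4, 6 and 8. In the same libraries the summed fibroblast markers (1473 to 1519 against 998 to 1278 CPM) and macrophage markers (563 to 804 against 345 to 519 CPM) were also higher with low *Vdac2*, and their part in these levels was not tested.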
